A study of Mus musculus with 12 samples.

Results

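The genes described here are 41 interferon-stimulated genes, taken by symbol from a table of 50559 mouse genes: 40 genes of the interferon response and Cxcl10, a chemokine gene that NF-kB induces too and that is therefore set beside the rest. All 41 were found, and all 41 passed the filter on low counts that left 13530 genes for testing. RNA was sequenced from bone marrow-derived macrophages of C57BL/6 mice, cells grown from cultured bone marrow. They were exposed for 1 h to an extract of house dust mite (HDM), a common cause of allergic asthma, or to vehicle, and each treatment has 6 libraries, numbered 1 to 6. The comparison asks which transcripts the extract changes, as part of work on the anchoring protein AKAP79/150. No mutation, sex or age is named in the labels. Nor do they state that each library is a separate animal or culture, and the p-values therefore reflect only variation among the 12 libraries, which may be technical.

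Counted reads per library ran from 19.69 M to 119.71 M. All 10 macrophage markers passed the filter, with a summed level of 17322 to 21880 CPM (counts per M reads). Of these 1 was called between the treatments, Cd14, and none of the tested markers of other cell types was. Many of those markers did not pass the filter. Tested were 3 of 7 for plasmacytoid dendritic cells, 1 of 7 for conventional dendritic cells and 4 of 9 for neutrophils. For lymphocytes 3 of 12 were tested, and for stroma and endothelium 5 of 7. In the list of plasmacytoid dendritic cells, which are known for making interferon, Ly6d had no reads in any library, and 4 of 7 markers lay under 1 CPM (Siglech, Ccr9, Ly6d and Klk1). The other markers on that list were higher, with Tcf4 at a mean of 60.7 CPM and Cox6a2 at 1.43 CPM. Bst2, at a mean of 131 CPM, is itself one of the 41 genes. The libraries numbered 5 and 6, of both treatments, stood apart from the other 8 on the first principal component of all tested genes (42.2% of the variance). Among the interferon-stimulated genes, vehicle 1 and vehicle 4 also stood apart from the other vehicle libraries, as described below. In bulk RNA, fewer cells of a type and less RNA per cell cannot be told apart.

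Type I interferons signal through the receptor IFNAR and the kinases JAK1 and TYK2. These activate the factor ISGF3, which contains STAT2 and IRF9 and binds a promoter element called the ISRE. The genes switched on in this way encode sensors of viral nucleic acid, proteins that block viral replication, and enzymes that attach the ubiquitin-like protein ISG15. Macrophages keep many of them at a low level without infection and raise them after toll-like receptor or interferon signals, usually after the cell has first made interferon-beta. Cxcl10 encodes a chemokine that attracts T cells and NK cells through the receptor CXCR3.

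The promoters of 4 genes are shown because these genes carry the results: Cxcl10, which rose, Stat2 and Irgm1, which were called lower, and Ifit3, which varied most from one vehicle library to another. Each is the run of 250 bases before the start of the gene, 5′ to 3′ on the gene's strand, from RefSeq on build GRCm38.p6. Capitals mark matches to the core of the ISRE (GAAA, any 2 bases, GAAA) or to a loose NF-kB (kB) motif (GGGA, any 4 bases, CC), both searched on both strands.
Cxcl10, chr5:92348890-92349139, minus strand: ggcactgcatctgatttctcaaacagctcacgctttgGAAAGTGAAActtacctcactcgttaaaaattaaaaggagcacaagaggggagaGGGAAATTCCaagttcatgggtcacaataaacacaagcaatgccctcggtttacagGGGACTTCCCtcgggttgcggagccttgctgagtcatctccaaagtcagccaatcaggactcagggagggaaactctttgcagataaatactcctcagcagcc
Stat2, chr10:128270248-128270497, plus strand: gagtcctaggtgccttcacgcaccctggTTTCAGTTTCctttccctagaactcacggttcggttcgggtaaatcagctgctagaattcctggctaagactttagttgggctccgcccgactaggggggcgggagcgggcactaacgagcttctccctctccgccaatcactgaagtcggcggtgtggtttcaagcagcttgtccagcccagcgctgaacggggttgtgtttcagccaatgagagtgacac
Irgm1, chr11:48871421-48871670, minus strand: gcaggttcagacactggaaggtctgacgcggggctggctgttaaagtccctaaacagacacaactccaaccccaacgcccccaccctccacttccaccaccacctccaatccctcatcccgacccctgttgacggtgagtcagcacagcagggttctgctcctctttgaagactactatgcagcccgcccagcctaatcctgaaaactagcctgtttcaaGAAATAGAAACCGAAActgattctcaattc
Ifit3, chr19:34583279-34583528, plus strand: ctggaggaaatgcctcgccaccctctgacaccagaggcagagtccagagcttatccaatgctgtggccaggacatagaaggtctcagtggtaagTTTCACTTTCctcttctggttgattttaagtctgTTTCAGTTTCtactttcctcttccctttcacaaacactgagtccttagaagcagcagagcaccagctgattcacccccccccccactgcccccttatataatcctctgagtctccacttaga

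The Cxcl10 promoter held 1 ISRE core, whose first letter lies 213 bases before the start, and 2 kB matches, at 159 and 103 bases. Stat2 held 1 ISRE core at 222 bases, Ifit3 held 2 at 156 and 122, and Irgm1 held 2 that overlap by 4 letters at 30 and 24 bases. RefSeq's table of windows of 300 bases, from 250 before to 50 after each start, had an entry for 32 of the 41 genes. Of the 31 without Cxcl10, 18 held an ISRE core (58.1%), which 3.44% of all 32851 windows and 3.91% of the 10370 tested genes with an entry held. The kB motif was in 9 of 31 (29.0%), beside 20.7% of all windows and 29.9% of tested genes. Cxcl10, Eif2ak2, Gbp2, Gbp5 and Rsad2 held both motifs, as did 1.09% of tested genes. A match describes the letters of the window and is not a measured binding site.

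Cxcl10 was higher with HDM in every library, and none of the other 40 genes was called higher. Its level was 0.533 CPM in the lowest vehicle library, 1.397 at the median and 1.91 in the highest. With HDM it was 10.5, 12.7 and 15.9 CPM, so the groups did not overlap, as in 2.32% of all tested genes in this direction. The fitted rise was 9.92-fold (3.31 ± 0.23 SE on the log2 scale, edgeR quasi-likelihood test, adjusted p = 1.04e-06). Means were 12.97 ± 1.79 CPM with HDM and 1.26 ± 0.541 with vehicle (SD, 6 libraries each). Calls here and below rest on an adjusted p under 0.05 in this test, which 5.37% of all tested genes passed, 2.9% higher and 2.47% lower. The log2 ratio of Cxcl10 between the HDM and vehicle library of 1 number ran from 2.72 in numbers 1 and 4 to 4.15 and 4.54 in numbers 5 and 6. The vehicle libraries 5 and 6 had its lowest levels, at 0.725 and 0.533 CPM. The other ligands of CXCR3 were hardly detected. Reads of Cxcl9 numbered 10 with HDM and 4 with vehicle, those of Cxcl11 numbered 0 and 3, and neither gene was tested.

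Of the 40 other genes, 2 were called lower and 0 higher. The quasi-likelihood test had 8 lower and 0 higher at an unadjusted p under 0.05, beside 7.13% and 6.83% of all tested genes. DESeq2, limma-voom and edgeR's robust setting each called 0 of the 40 higher, beside 526, 410 and 392 of the 13530 tested genes. The share called lower was 5% of the members. The 40 log2 fold changes ran from -0.41 to 0.06, with a median of -0.13 beside -0.0048 over all tested genes. They lay below 0 in 36 of the 40, beside 52.5% of all tested genes. The 95% interval of the log2 fold change had an upper bound of at most 0.42 (Ifit3), and 28 of the 40 intervals lay within -0.5 to 0.5, beside 74.5% of all tested genes.

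The labels number both treatments from 1 to 6, and over all tested genes libraries of equal number deviated from their group means together. Only 2 of 6 HDM libraries, however, correlated best with the vehicle library of their own number, so this pairing is uncertain. The split of the libraries numbered 5 and 6 from the others also enters these deviations. A second fit compared HDM with vehicle within each number (the replicate block). This fit called 14.7% of all tested genes. It called 8 of the 40 lower, 20% of them beside 6.81% of all tested genes, and 0 higher beside 7.9%. The 8 were Stat2, Dhx58, Oas2, Oas3, Oasl2, Irgm1, Trim25 and Rtp4. When numbers 1 and 4 were left out of it, 1 of the 40 was called lower, Stat2, beside 4.01% of all tested genes. The other 7 were not called without these numbers, though the log2 fold change of Trim25 stayed close to its size with all numbers.

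**Figure D1:**
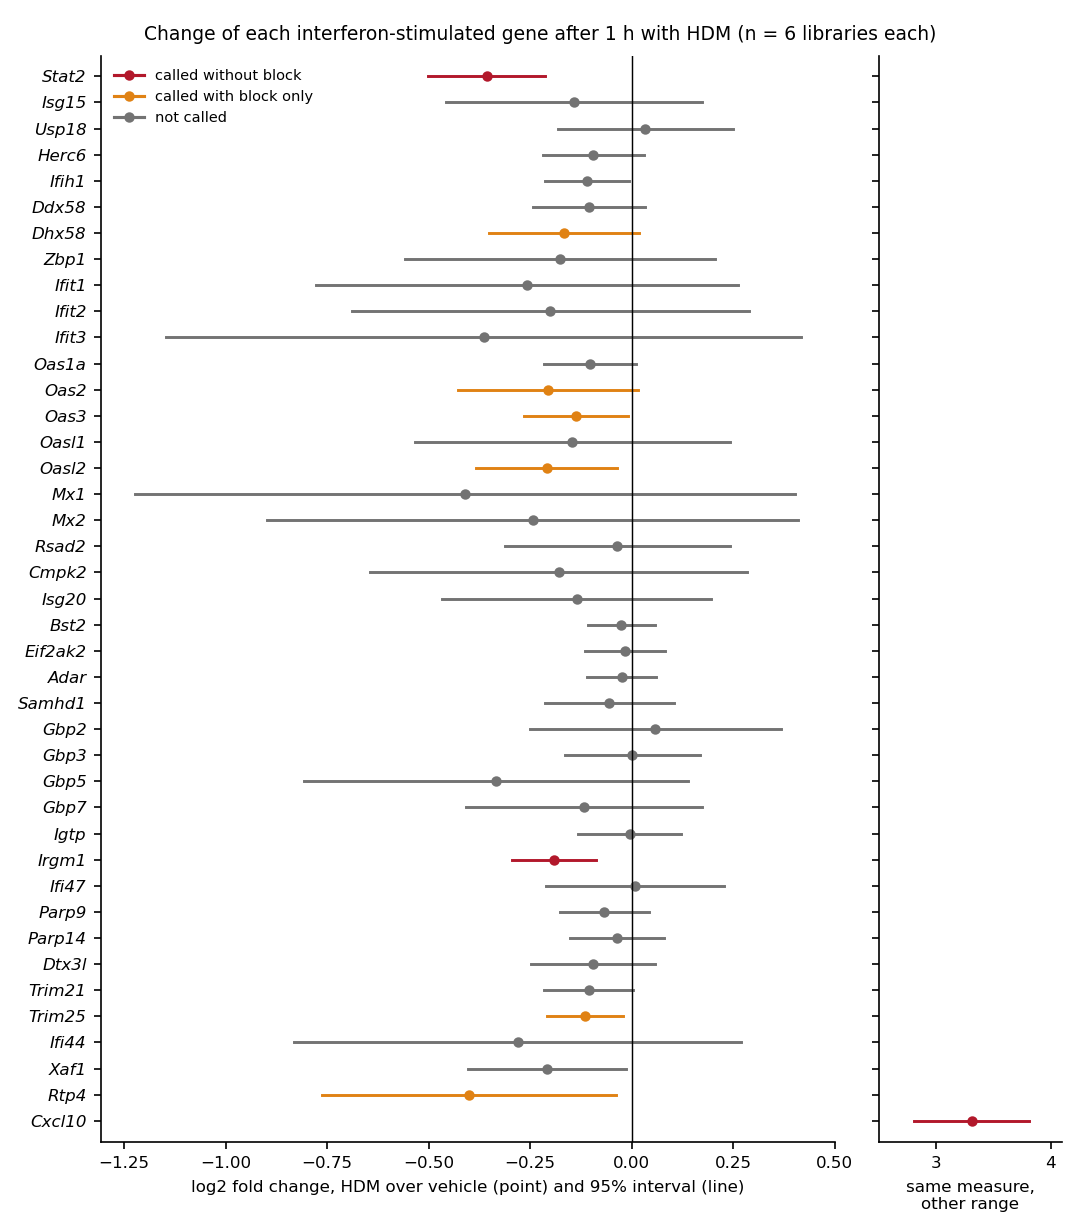
Log2 fold change of each of the 41 genes, HDM over vehicle (points), with its 95% interval from the fit without the block (lines); the right panel has its own axis range for Cxcl10. Stat2, Irgm1 and Cxcl10 were called in both fits, 6 further genes with the block only, and the remaining intervals lie close to or across 0.

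Stat2 encodes the subunit of ISGF3 that brings its transactivation domain, and it had the clearest fall among the 40. Its vehicle libraries lay at 44.6 to 57.3 CPM with a median of 48.1, and its HDM libraries at 37.8 to 42.9 with a median of 38.5. The groups did not overlap, which held for 280 of the tested genes in this direction (2.07%) and for 2 of the 40. The mean was 39.3 ± 1.93 CPM with HDM and 50.3 ± 5.60 with vehicle. The log2 fold change was -0.36 ± 0.07 SE, with adjusted p = 0.00557 and, with the block, 1.58e-05. Vehicle 1 and vehicle 4 were its highest libraries, at 57.2 and 57.3 CPM. With numbers 1 and 4 left out the change was -0.25 ± 0.04 (adjusted p = 0.000218 with the block).

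Other members of the pathway's own control loop gave no call. Isg15, the ubiquitin-like modifier, lay at 4.49 to 5.47 CPM with HDM and at 3.75 to 8.04 with vehicle (log2 fold change -0.14, 95% interval -0.46 to 0.17). Usp18, whose product removes ISG15 and blocks signalling at IFNAR2, lay at 9.45 to 13.2 CPM with HDM (median 10.8) and 9.55 to 12.4 with vehicle (median 10.1). Its log2 fold change was 0.03 (-0.18 to 0.25). Herc6, the main ISG15 ligase of mice, was at -0.09 (-0.22 to 0.03). For all 3 genes the libraries of the treatments overlapped.

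The sensors of viral RNA are the RIG-I-like receptors, with Ddx58 encoding RIG-I, Ifih1 encoding MDA5 and Dhx58 their regulator LGP2. Zbp1 encodes a sensor of Z-form nucleic acid that can start necroptosis. Dhx58 had a vehicle median of 23.2 CPM (19.8 to 27.5) and an HDM median of 22.1 (18.2 to 23.6), so the groups overlapped. The difference was -0.17 ± 0.09 SE on the log2 scale (adjusted p = 0.439). With the block the change was the same size with a smaller error, -0.17 ± 0.05 (adjusted p = 0.0197), and it was lower with HDM in 5 of 6 numbers. Without numbers 1 and 4 it was -0.10 ± 0.06 (adjusted p = 0.371). Ifih1 was at -0.11 (95% interval -0.21 to -0.0065, adjusted p = 0.307), Ddx58 at -0.11 (-0.24 to 0.03) and Zbp1 at -0.18 (-0.56 to 0.20).

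The IFIT proteins bind viral RNA that lacks the cap marks of host RNA, and their genes sit in a cluster with near-identical neighbours, which can share reads. They were among the most variable members. Ifit3 lay at 12.3 and 12.9 CPM in vehicle 1 and 4, at 6.44 and 7.04 in vehicle 2 and 3, and at 3.83 and 3.12 in vehicle 5 and 6. With HDM its 6 libraries lay at 3.23 to 8.94 CPM with a median of 5.77, inside the range of the vehicle libraries. The log2 fold change of -0.36 had a 95% interval of -1.15 to 0.42 (adjusted p = 0.865). The log2 ratio within a number was -0.94 and -1.33 in numbers 1 and 4, 0.47 and 0.27 in 2 and 3, and -0.25 and 0.29 in 5 and 6. Ifit1 (-0.26, interval -0.78 to 0.26) and Ifit2 (-0.20, interval -0.69 to 0.29) showed the same kind of spread, with vehicle 1 and 4 highest for both.

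Oligoadenylate synthetases sense double-stranded RNA and make the messenger that activates RNase L, and the Oasl genes encode related proteins. All 5 log2 fold changes lay below 0 and none was called without the block. Oas3, the synthetase of long RNA, lay at 67.2 to 74.7 CPM with HDM (median 73.1) and at 70.3 to 92.6 with vehicle (median 78.7), highest in vehicle 5 (log2 fold change -0.14 ± 0.06 SE, adjusted p = 0.302, and 0.0376 with the block). Oas2 had medians of 22.03 CPM with HDM (19.5 to 27.5) and 26.2 with vehicle (21.4 to 31.4), at -0.21 ± 0.10 (adjusted p = 0.418, and 0.0232 with the block). Oasl2 lay at 40.9 to 45.6 CPM with HDM, with a median of 42.05. With vehicle it reached 58.2 and 56.2 CPM in numbers 1 and 4, and the other 4 libraries reached at most 51.3 (-0.21 ± 0.08, adjusted p = 0.215, and 0.0402 with the block). Without numbers 1 and 4 the 3 genes were at -0.05 to -0.07 with the block, with adjusted p from 0.468 to 0.692. Oas1a was at -0.10 (95% interval -0.22 to 0.01) and Oasl1 at -0.15 (-0.53 to 0.24). Oas1a belongs to a family of near-identical copies, so its value is uncertain.

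The 9 antiviral effectors split into steady and variable genes, and none was called in either fit. Bst2, the gene of the surface protein tetherin that holds budding virus to the cell, lay at 125 to 134 CPM with HDM and 124 to 144 with vehicle. Its interval was among the narrowest, at -0.03 (95% interval -0.11 to 0.06). Adar, the RNA-editing enzyme that marks double-stranded RNA as self, was at -0.02 (-0.11 to 0.06). Eif2ak2, the gene of the kinase PKR, was at -0.02 (-0.12 to 0.08), and Samhd1, which encodes an enzyme that depletes nucleotides, at -0.06 (-0.21 to 0.10).

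Mx1 was at the other end. It encodes a dynamin-like restriction factor of influenza virus that C57BL/6 mice are known to carry in a defective form. Its vehicle libraries lay at 1.398 to 5.49 CPM with a median of 3.82 and its HDM libraries at 1.17 to 4.96 with a median of 2.68. The log2 fold change of -0.41 was the lowest of the 40, but its 95% interval of -1.22 to 0.40 was the widest (adjusted p = 0.836). Mx2 (-0.24, interval -0.90 to 0.41), Cmpk2 (-0.18, interval -0.64 to 0.28) and Isg20 (-0.14, interval -0.47 to 0.20) had narrower intervals, also across 0. Rsad2, which encodes viperin, an enzyme that makes a chain-terminating nucleotide, lay at 16.0 to 26.0 CPM with HDM and 16.4 to 25.6 with vehicle (-0.04, interval -0.31 to 0.24).

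Guanylate-binding proteins and immunity-related GTPases attack the membranes around intracellular microbes, and interferon-gamma is their strongest known inducer. Irgm1, whose product regulates the other GTPases and autophagy, was called slightly lower. It lay at 40.4 to 45.3 CPM with HDM, with a median of 43.4, and at 45.9 to 55.3 with vehicle, with a median of 48.2. The groups did not overlap, by a margin of less than 1 CPM. The log2 fold change was -0.19 ± 0.05 SE (adjusted p = 0.0337, and 0.00235 with the block), and HDM was lower in all 6 numbers. Leaving out any 1 of 7 libraries (numbers 1, 2 and 4 of HDM, and 1, 2, 4 and 5 of vehicle) ended its call, with a highest adjusted p of 0.0972. It was also lost without vehicle 1 and vehicle 4 together (-0.15 ± 0.05, adjusted p = 0.137) and without numbers 1 and 4 in the block fit (-0.12 ± 0.04, adjusted p = 0.0931).

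The other 6 GTPase genes were not called. Gbp2 had the highest log2 fold change of the 40, at 0.06 (95% interval -0.25 to 0.37), with 5.27 to 9.77 CPM with HDM (median 7.42) and 6.52 to 8.67 with vehicle (median 7.15). Ifi47 lay at 13.7 to 17.6 CPM with HDM (median 17.0) and 12.2 to 18.5 with vehicle (median 17.1), at 0.0088 (-0.21 to 0.23). Igtp (-0.0051, interval -0.13 to 0.12) and Gbp3 (0.0012, interval -0.16 to 0.17) lay near 0. Gbp7 was at -0.12 (-0.41 to 0.17). Gbp5, present at 0.410 to 0.904 CPM with HDM (median 0.694) and 0.518 to 1.13 with vehicle (median 0.806), was at -0.33 (-0.81 to 0.14). Gbp genes lie together and resemble one another, so reads can be shared among them.

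Parp9, Parp14 and Dtx3l encode ADP-ribosyltransferases and a ubiquitin ligase that act with one another on chromatin, and Trim21 and Trim25 encode ubiquitin ligases. Trim25, which activates RIG-I, had HDM libraries at 295 to 339 CPM with a median of 325 and vehicle libraries at 327 to 371 with a median of 343. It was lower with HDM in all 6 numbers, at -0.11 ± 0.04 SE (adjusted p = 0.199) without the block and -0.11 ± 0.03 (adjusted p = 0.00419) with it. Unlike most members it was not highest in vehicle 1 and 4 but in vehicle 5 and 6, at 371 and 362 CPM. Without numbers 1 and 4 it was at -0.10 ± 0.03 with the block (adjusted p = 0.067). Within numbers 5 and 6 alone, with only HDM 5 and 6 and vehicle 5 and 6, the change was -0.16 ± 0.03 (adjusted p = 0.000764). That p reflects only the spread between libraries that were among the closest pairs of their treatment. Trim21, an antibody receptor inside the cell, was also lower in all 6 numbers, at -0.11 ± 0.05 (adjusted p = 0.391, and 0.112 with the block). A lower level in all 6 numbers was found in 8.95% of tested genes and in 4 of the 40 members. Parp9, Parp14 and Dtx3l were at -0.07, -0.04 and -0.09, all with intervals across 0.

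Rtp4, a gene whose product was described as a chaperone of odorant and opioid receptors and as a brake on the interferon response, had medians of 7.47 CPM with HDM (6.00 to 11.4) and 9.40 with vehicle (8.33 to 14.2). Its log2 fold change was -0.40 ± 0.17 SE (adjusted p = 0.272, and 0.0238 with the block). Its differences were largest in numbers 1 and 4, with log2 ratios of -0.85 and -0.98, and number 2 went the other way at 0.19. Without numbers 1 and 4 it was at -0.09 ± 0.09 (adjusted p = 0.628). Xaf1, a gene linked to apoptosis, was at -0.21 (95% interval -0.40 to -0.01, adjusted p = 0.302) and Ifi44 at -0.28 (-0.83 to 0.27).

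**Figure D2:**
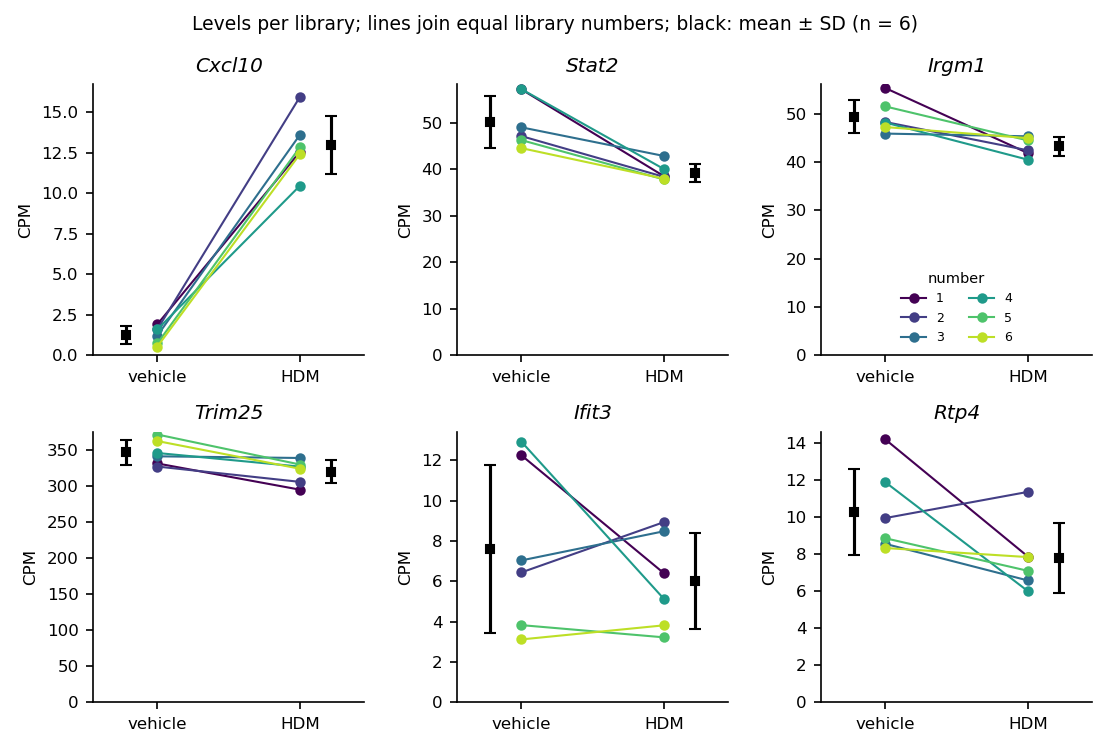
Level in CPM of 6 genes in each library, vehicle on the left and HDM on the right of each panel, with lines joining libraries of equal number and black squares for the mean ± SD (n = 6). Cxcl10 rises in every number and Stat2, Irgm1 and Trim25 are lower with HDM in every number, whereas the lines of Ifit3 cross and the steepest falls of Ifit3 and Rtp4 start from vehicle 1 and vehicle 4.

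The members shared a pattern across libraries that the treatment did not define. Vehicle 1 and vehicle 4 were the 2 highest of the 6 vehicle libraries for 23 of the 40 genes, beside 5.82% of all tested genes. The 23 included Stat2, Isg15, the 3 Ifit genes, Mx1, Mx2, Ifi44, Xaf1 and Rtp4. The mean of these 2 libraries stood above that of the other 4 vehicle libraries by a median of 0.23 on the log2 scale, up to 1.30 for Ifit3, and was above it for 35 of the 40. Over all tested genes the median was -0.0024. Of 68 further tested interferon-stimulated genes outside the members, 24 showed the same order. The 40 genes belong to one response and are not independent observations.

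The difference between treatments was largest in numbers 1 and 4, where the HDM libraries contribute to the ratio as well. For some members HDM 1 and HDM 4 lay below HDM 2 and HDM 3. Ifit1 was at 5.96 and 5.57 CPM beside 8.47 and 8.13, and Cmpk2 at 9.20 and 9.40 beside 12.9 and 14.2. For others, such as Trim21, this was not so. In number 1 the median log2 ratio of HDM to vehicle over the 40 genes was -0.29, with 39 of 40 lower with HDM, and in number 4 it was -0.28, again with 39 of 40. In number 2 the median was 0.0061 with 19 lower, in number 3 it was 0.0055 with 18, in number 5 it was -0.11 with 26, and in number 6 it was 0.04 with 17. Over all tested genes 49.8% to 51.5% were lower with HDM in each number. Without vehicle 1 and vehicle 4 the median over the 40 was -0.01, with 23 of 40 below 0. Without numbers 1 and 4 and with the block it was 0.01, with 19 below 0. The lower median of the 40 genes was thus not seen without vehicle 1 and vehicle 4, while Stat2 and Cxcl10 were called with and without them. These 2 libraries were left out because they were high in these same genes. Leaving them out therefore shrinks the fall by selection, and no conclusion on its source is drawn.

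**Figure D3:**
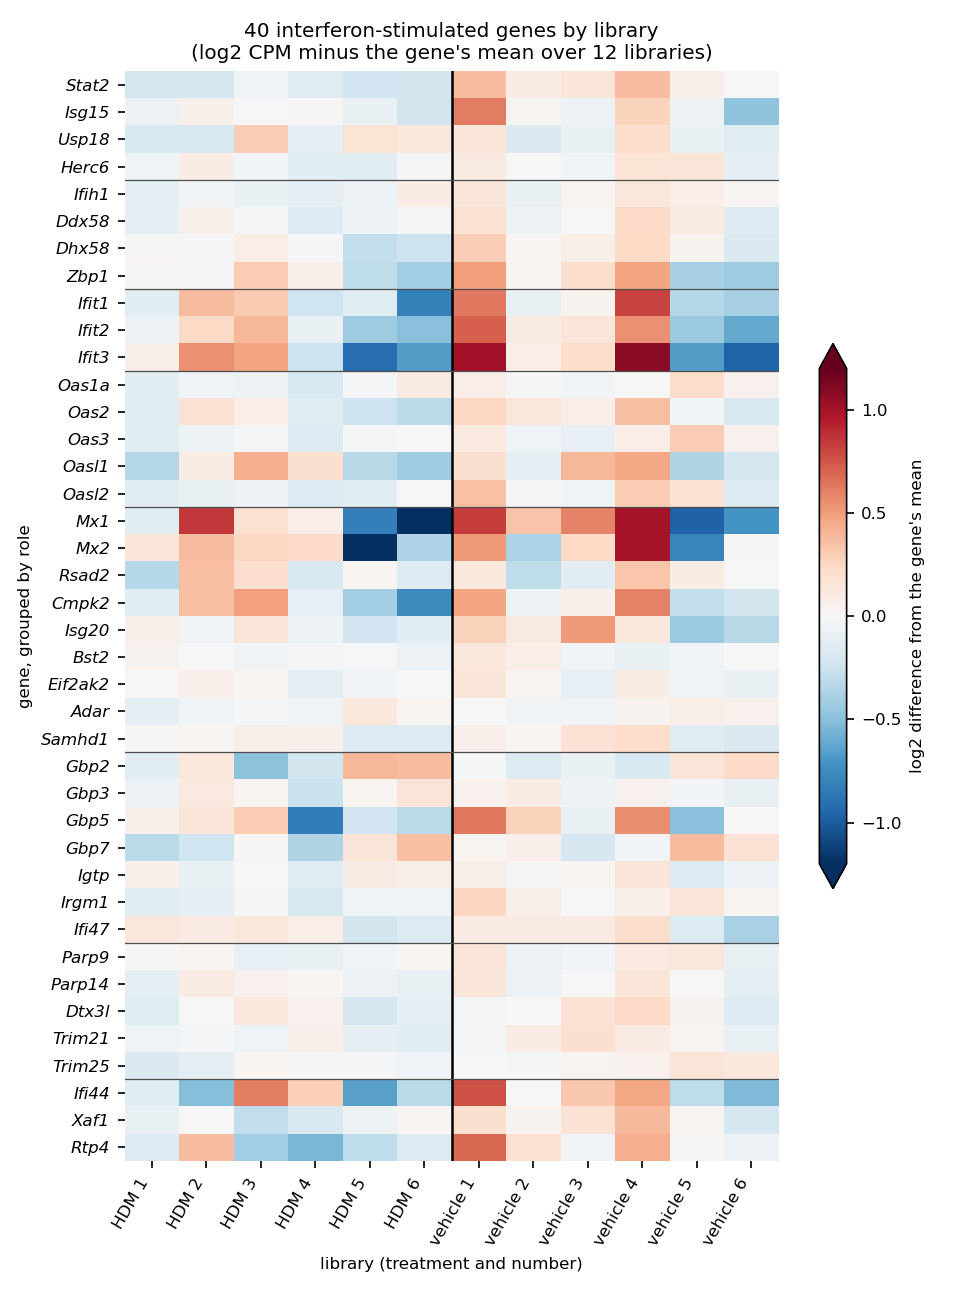
Log2 CPM of the 40 genes in each library minus the gene's mean over the 12 libraries, with rows grouped by role and the treatments separated by a black line. The columns vehicle 1 and vehicle 4 are red for most rows, and Ifit2, Ifit3 and Mx1 are blue in numbers 5 and 6 of both treatments; red marks values above a gene's mean and blue values below it.

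A second pattern, found over all tested genes and not particular to the members, set numbers 5 and 6 apart in both treatments. In 8 of the 40 genes (Zbp1, Ifit2, Ifit3, Mx1, Cmpk2, Isg20, Samhd1 and Ifi47) all 4 of these libraries lay below the other 8, and in Gbp2 and Gbp7 they lay above. Of all tested genes 15.2% and 13.7% did so. The ratio of the mean of numbers 5 and 6 to that of the others ran from 0.369 to 1.35 among the 40. Marker lists of other cells differed along the same split. The summed stroma and endothelium list was at 34.6 to 41.01 CPM in numbers 5 and 6 and 12.9 to 16.3 in the others, mostly through Kdr, with 5 of its 7 markers under 1 CPM. Its endothelial markers Pecam1 and Cdh5 went the other way, with Pecam1 at 0.363 to 0.558 CPM in numbers 5 and 6 and 2.12 to 3.69 in the others. The summed neutrophil list was at 101 to 114 and 43.0 to 62.4 CPM, mostly through Mmp8, with 7 of 9 under 1 CPM, Ly6g among them. The part of these cells in the levels of the interferon-stimulated genes was not tested. Within numbers 1 to 4 the fit called Stat2, Irgm1 and Xaf1 lower, beside 2.88% of all genes tested there. Within numbers 5 and 6 it compared only HDM 5 and 6 with vehicle 5 and 6. That fit called Stat2, Oas3 and Trim25 lower, beside 4.22% of all genes tested there. Cxcl10 was called higher in both.

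Upstream of these genes, no interferon was expressed at a testable level. Of 13 interferon ligand genes 10 had no reads in any library, and the list summed to 8 reads with HDM and 1 with vehicle. Ifnb1, the gene of interferon-beta, had 2 reads with HDM, in 2 libraries, or 0.00656 per M reads (exact 95% interval 0.000794 to 0.0237), and 0 with vehicle, which allows up to 0.0121 per M reads (3 counts). Intervals and limits of this kind cover counting error only.

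Of 11 tested receptor, kinase and STAT genes, 1 rose and 1 fell (2 and 1 with the block, which added Ifngr1). Ifngr2, a chain of the interferon-gamma receptor, rose by 0.16 ± 0.03 SE (adjusted p = 0.0032), and Irf9, the DNA-binding subunit of ISGF3, fell by 0.21 ± 0.04 (adjusted p = 0.0072), to 41.9 ± 2.20 CPM beside 48.5 ± 2.07 with vehicle. Irf9 thus moved in the direction of Stat2. Ifnar1 was at 0.07 (0.0071 to 0.13, adjusted p = 0.264) and Ifnar2 at 0.01 (-0.04 to 0.06).

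Of 9 tested interferon regulatory factors and their binding partners 1 rose, Irf2, a repressor of interferon genes, by 0.13 ± 0.04 (adjusted p = 0.0491), and the block called 3 higher, with Irf8 and Irf2bp2 added. Irf1 was at 0.21 (95% interval -0.0077 to 0.42, adjusted p = 0.388), Irf3 at -0.05 (-0.22 to 0.12) and Irf7, which is itself interferon-stimulated, at -0.20 (-0.43 to 0.03, adjusted p = 0.495). Of 16 genes on the routes to interferon induction 2 fell, the toll-like receptor adaptors Ticam1 (-0.28 ± 0.05, adjusted p = 0.00409) and Ticam2 (-0.22 ± 0.05, adjusted p = 0.0323). The block called 5 lower, with Ikbke, Tlr7 and Tlr9 added. Of 12 inhibitors of cytokine signalling 3 rose: Socs3 (3.30 ± 0.20, adjusted p = 2.25e-07), Cish (2.08 ± 0.22, adjusted p = 4.4e-05) and Pias4 (0.15 ± 0.04, adjusted p = 0.0402). Socs1, which restrains interferon receptors, was at 0.12 (95% interval -0.30 to 0.54).

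Of the 68 further interferon-stimulated genes, 6 were called lower and 0 higher, beside 2.47% and 2.9% of all tested genes. Their median log2 fold change was -0.06, and 55 of 68 lay below 0, beside 52.5% of all tested genes. At an unadjusted p under 0.05 the counts were 9 lower and 0 higher, beside the same 7.13% and 6.83% of all tested genes. DESeq2 called 7 lower and limma-voom 5, beside 3.17% and 2.73% of all tested genes. The block called 11 lower, beside 6.81%. DESeq2, limma-voom and the block each called 0 higher, beside 526, 410 and 1069 of the 13530 tested genes. The 4 with the smallest p were Oas1b, Irf9, Trafd1 and Tor3a. Oas1b, a synthetase gene with near-identical copies, averaged 2.26 ± 0.157 CPM in vehicle libraries and 1.43 ± 0.159 in HDM libraries (SD, 6 each; -0.65 ± 0.10 SE, adjusted p = 0.00109). Trafd1, a feedback regulator of innate signalling, was at -0.19 ± 0.04 (adjusted p = 0.0172) and Tor3a at -0.12 ± 0.03 (adjusted p = 0.0223). With any 1 library left out, 3 to 5 of the 68 were called lower, beside 1.71% to 2.13% of all tested genes. Without vehicle 1 and vehicle 4 the median of the 68 was -0.0094 and 1 was called lower, when 1.35% of all tested genes were. Without numbers 1 and 4 and with the block, 4 of the 68 were called lower and 2 higher, with a median of 0.0023. That fit called 4.01% of all tested genes lower, and 806 of 13532 higher.

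Most genes on the list of NF-kB targets, which Cxcl10 is known to be among, were higher. The list was chosen with earlier results of these data known, so its counts describe the list and are not a test. Of 26 tested genes 18 rose (23 with the block), beside 2.9% of all tested genes (7.9% with the block). A log2 fold change above 0 was seen in 25, and the 26 had a median of 1.47 and values from -0.06 to 8.48. The 4 with the smallest p were the neutrophil chemokine Cxcl2 (6.10 ± 0.19 SE), the cytokine Tnf (3.73 ± 0.13), and the genes of the NF-kB inhibitors Nfkbid (2.49 ± 0.09) and Nfkbia. The level of Nfkbia averaged 44.8 CPM in vehicle libraries and 508 in HDM libraries (adjusted p = 3.25e-09).

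**Figure D4:**
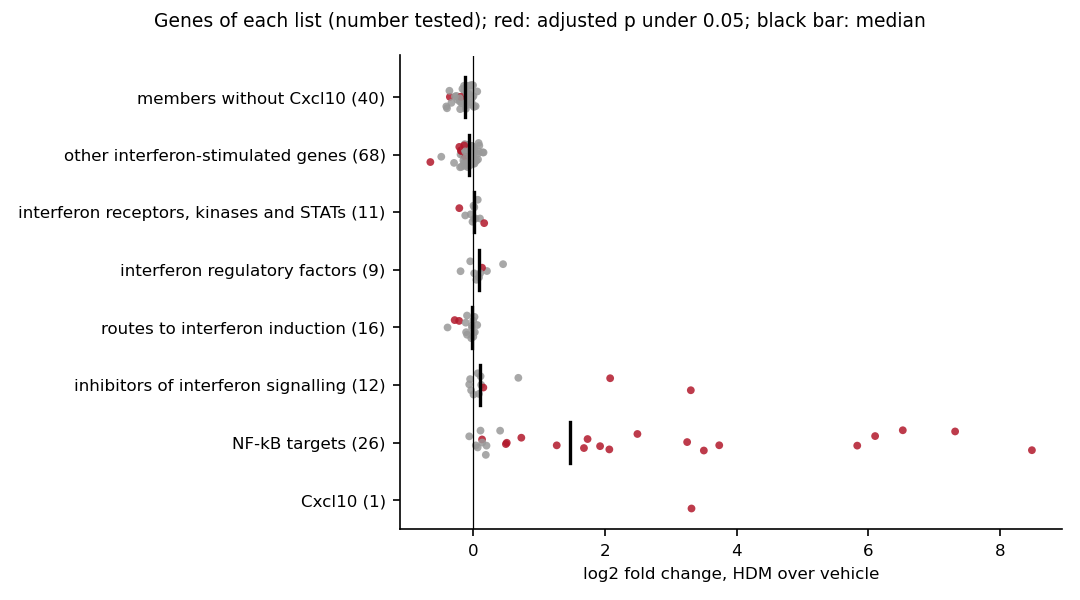
Log2 fold change (HDM over vehicle) of each tested gene, one row per list with the number tested, red where the adjusted p was under 0.05 and a black bar at the median. The 40 members and the 68 further interferon-stimulated genes lie close to 0, NF-kB targets reach 8.48, and Cxcl10 at 3.31 lies among the latter.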

How the data were processed

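Stranded libraries were prepared from poly(A) RNA after DNase treatment, per the labels' protocols. What the authors deposited is a table of unscaled read counts, with gene symbols as rows and libraries as columns. The submitters' processing notes list, without roles, the builds GRCm38 and mm39, and the tools STAR 2.6.0c, featureCounts 2.0.6, Subread, cutadapt 4.5, Trim Galore 0.6.10 and FastQC 0.12.1. How strand was handled in counting, and the annotation release, is not given in the sources used here. Overlapping or near-identical genes can therefore share reads.

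The members and gene lists were chosen with earlier results of these data known. Counts were fitted in R 4.3.3 with edgeR 4.0.16 (and limma 3.58.1), by the quasi-likelihood test, two-sided, with TMM factors, default filterByExpr and treatment as the only term. Benjamini-Hochberg adjustment ran over 13530 genes. CPM use TMM factors, a standard error is the size of the log2 fold change over the square root of F, and intervals are 95% without adjustment. The procedure was tested on simulated data, with planted changes larger than those of the members other than Cxcl10. The simulated libraries were independent, without pairs or a shared split of numbers 5 and 6. The simulation therefore does not cover small changes or these features of the design. DESeq2 1.42.0, limma-voom, other scalings and filters, the replicate block and left-out libraries were alternatives. Equal-numbered libraries were taken as pairs because their deviations correlated at 0.367 to 0.672, above the bound of 0.1. This rests on the data, not the labels, and only 2 of 6 HDM libraries correlated best with their own number. The deviations also hold the split of numbers 5 and 6 from the others, so passing the bound cannot show that equal numbers are pairs. HDM 5 correlated at 0.624 with vehicle 5 and at 0.704 with a vehicle library of another number. Same-group libraries differed by more than sampling noise (chi-square per degree of freedom at least 2.26 over 30 pairs). Some pairs were much closer than others. The value was 2.26 for HDM 3 and 4, 3.53 for HDM 5 and 6, 4.02 for vehicle 3 and 4 and 2.91 for vehicle 5 and 6. Across all pairs it reached 88.8. Whether close libraries share an animal or culture is not stated, and if they do the p-values are too small.

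By the rule for named genes, levels were given for members called in either fit, Cxcl10, and the 3 lowest and 3 highest log2 fold changes among the others. Of each list, at most 4 called genes with the smallest p were named, plus Ifnb1, Ifnar1, Ifnar2, Irf9, Irf1, Irf3, Irf7 and Nfkbia. A further gene that the rule names is not reported here. Other genes named, such as Socs1, Bst2 and Rsad2, were chosen with their values known.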

Additional observations from a re-analysis of the deposited data

Results flagged for a closer look

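Rtp4 stood out in 1 library. With HDM it was at 11.4 CPM in the library numbered 2, while the other 5 HDM libraries lay between 6.00 and 7.87 CPM. The gap to the nearest library is 0.651 of the group's range, above the 95% critical value of Dixon's test for 6 samples. It was the 1 such value among 82 groups of 6 libraries examined, where chance gives about 1 in 20.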

How the results depend on the processing

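Cxcl10 and Stat2 were called in the same direction under every alternative run, Cxcl10 at 3.14 to 3.46 and Stat2 at -0.39 to -0.31 when 1 library was left out. Called genes (727, with 393 higher and 334 lower) became 1990, 1069 and 921 with the replicate block. Numbers 5 and 6 alone gave 1139 called and 567 lower, and numbers 1 to 4 alone 683 higher. Without vehicle 1 and vehicle 4, an alternative chosen after seeing the data, the counts were 439, 253 and 186. Numbers 2, 3, 5 and 6 with the block, also chosen after seeing the data, gave 1348, 806 and 542. Members called lower went from 2 to 8 with the block, to 1 with no low count filter, to 1 without vehicle 1 and vehicle 4 and to 1 with numbers 2, 3, 5 and 6 and the block. Leaving out 1 library gave 1 to 2. The block changed no other call among the members. The median of the 40 ran from -0.14 to -0.09 without 1 library and turned to 0.013 with numbers 2, 3, 5 and 6 and the block, where Mx1 (0.038), Ifit3 (0.28) and Gbp5 (0.020) turned sign too. Ifit3 was at 0.21 without vehicle 1 and vehicle 4 and at 0.056 in numbers 5 and 6. Genes near 0 also turned sign: Ifi47 (-0.0082 with upper-quartile factors, -0.012 with total count, -0.011 in numbers 1 to 4, -0.060 to 0.058 without 1 library), Usp18 (-0.011 with limma-voom, -0.10 in numbers 1 to 4, -0.018 to 0.088 without 1 library) and Gbp2 (-0.024 in numbers 1 to 4, -0.024 to 0.14 without 1 library). The cause was not tested. Depth limits Cxcl9, Cxcl11 and the interferon ligands.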
